A study of Mus musculus with 8 samples.

Results

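miR-183-5p (mmu-miR-183-5p) and miR-182-5p (mmu-miR-182-5p) are the 2 members, out of the 422 mature miRNAs in the deposited table, of the miR-183 cluster, a group of miRNAs known for its high expression in sensory organs. They were chosen by name, and the study had itself listed both as differentially expressed on these same libraries, so that their direction is not independent evidence here. The hippocampus of 8 adult male mice was profiled by small RNA sequencing, with 1 library per mouse. The groups were 4 mice of the inbred BTBR T+ Itpr3tf/J strain (BTBR), used as a model of autism, and 4 mice of the C57BL/6J control strain (B6), all 12 weeks old, and no treatment was described for either. Both strains are inbred lines that differ at many loci, BTBR mice carry the tufted allele of Itpr3 named in the strain designation, no engineered allele was described, and any handling that followed the strain cannot be told apart from it. Hippocampi were punched from brain slices, and the cells are a mixture of all types in the punch. In such bulk tissue a change in the number of cells and a change in RNA per cell cannot be told apart.

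The miR-183 cluster encodes miR-183, miR-96 and miR-182, which are processed from closely spaced hairpins and are classically transcribed together. The cluster is strongly expressed in photoreceptors, in hair cells of the inner ear and in olfactory sensory neurons, and seed mutations of miR-96 cause hearing loss in mice and humans. A miRNA recognizes its targets mainly through its seed, the bases 2 to 8 counted from the 5′ end, and the levels of members of a cluster can differ because hairpins are processed, and mature strands decay, at their own rates.

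The mature sequences of the cluster's 5p arms are shown first, because the seeds decide which targets each can share. They come from RefSeq on GRCm38.p6, 5′ to 3′, with the seed in capitals. miR-96-5p is given for comparison, since the deposited table holds no row for it.
miR-183-5p: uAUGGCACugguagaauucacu
miR-182-5p: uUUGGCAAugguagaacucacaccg
miR-96-5p: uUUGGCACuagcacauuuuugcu
Aligned from the first base without gaps, miR-183-5p and miR-182-5p had the same base at 18 of 22 positions, but at 5 of the 7 seed positions. Their longest shared run was 8 bases, UGGUAGAA, at bases 9 to 16 of miR-183-5p. miR-96-5p matched each of the other two at 6 of 7 seed positions and had the same base as miR-182-5p at 12 of 23 positions. Of the 422 miRNAs in the table, 367 had a mature sequence under their name, and none of these carried the seed of miR-183-5p or of miR-182-5p apart from the members themselves.

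The hairpins Mir183, Mir96 and Mir182 lie on the minus strand of chromosome 6. The table lists miRNAs with at least 1 read in every library, and the 3p arms and miR-96 were not analysed here. On GRCm38, Mir183 spans chr6:30169668-30169737, Mir96 spans chr6:30169446-30169551 and Mir182 spans chr6:30165918-30165992. Mir183 and Mir96 are separated by 116 bases, and Mir96 and Mir182 by 3453 bases. The cluster of 3820 bases is intergenic, with 0 other annotated genes overlapping it. The nearest annotated genes are the long noncoding RNA Rncr4, 3155 bases away on the opposite strand, and the protein-coding gene Nrf1, 12459 bases away on the other side.

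The libraries held between 2247482 and 7904990 reads counted on miRNAs, and the members took a very small share of them. The brain identity of the tissue was checked on 7 miRNAs of neural cells, all measured, among them miR-9-5p, miR-124-3p and miR-128-3p. Their summed level lay between 51719 and 80591 CPM in B6 and between 60239 and 72946 CPM in BTBR mice. CPM here and below are counts scaled to library size (CPM) after TMM normalization, which corrects for differences in the composition of the libraries. B6 replicate 1 stood apart from the other B6 libraries in miRNAs of the choroid plexus and of motile cilia.

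miR-183-5p was upregulated in BTBR mice, where 3 of the 4 libraries held more of it, after TMM normalization, than any B6 library. The B6 libraries held 25, 7, 6 and 2 reads in replicates 1 to 4, and the BTBR libraries 21, 95, 229 and 107 reads. As levels, these were 4.80, 1.17, 1.21 and 0.449 CPM in B6 and 4.32, 42.6, 57.4 and 12.9 CPM in BTBR mice. BTBR replicates 2, 3 and 4 lay above all B6 libraries, whereas BTBR replicate 1 lay just below B6 replicate 1, so that the strains overlapped in this 1 pair of libraries. That overlap depended on the scaling. Before TMM normalization BTBR replicate 1 had 4.48 CPM and B6 replicate 1 had 4.32 CPM, and the strains did not overlap. The 95% counting intervals of these 2 values overlapped widely, at 2.77 to 6.84 and 2.79 to 6.37. The 2 reads of B6 replicate 4 correspond to 0.392 CPM before TMM normalization, with an exact 95% binomial interval of 0.0474 to 1.41 that covers counting error only. By read number, miR-183-5p ranked between 360 and 418 of the 422 miRNAs in B6 libraries and between 194 and 364 in BTBR libraries.

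On average, B6 mice had 1.91 ± 1.96 CPM of miR-183-5p (SD, n = 4), and BTBR mice had 29.3 ± 24.9 CPM (SD, n = 4). BTBR minus B6, the log2 fold change reached 3.90 (standard error 0.85), that is 14.9-fold with a 95% interval of 4.12 to 54.0. This was the largest log2 fold change, in size, among the 422 miRNAs in this fit, and its p-value ranked 5 from the smallest. Its adjusted p, by edgeR's quasi-likelihood test over all 422 miRNAs, was 0.0569, under the study's cutoff of 0.1. In that comparison 1.66% of all miRNAs were called, 1.18% as higher in BTBR mice, and of the 2 members 1 was called, as higher. Both members had an unadjusted p under 0.05, as did 10.9% of all miRNAs. A two-sided exact permutation test on log2(CPM + 0.5) over the 70 assignments of the 8 libraries gave p = 0.0571, where 0.0286 is the smallest value possible. The call was lost without B6 replicate 2 or 3 and without BTBR replicate 2 or 3, with log2 fold changes of 3.76, 3.71, 3.66 and 3.32, and with limma-voom or robust dispersions. Leaving out B6 replicate 1 gave a log2 fold change of 4.82 (adjusted p = 0.0121 in the same edgeR test).

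miR-182-5p had more reads than miR-183-5p in all libraries except BTBR replicate 2. The B6 libraries held 246, 46, 38 and 31 reads of it in replicates 1 to 4, and the BTBR libraries 138, 84, 530 and 838 reads. The corresponding levels were 47.2, 7.70, 7.67 and 6.97 CPM in B6 and 28.4, 37.7, 133 and 101 CPM in BTBR mice. B6 replicates 2, 3 and 4 were close to each other and below all BTBR libraries. B6 replicate 1 was above BTBR replicates 1 and 2, and the strains overlapped through this library. By read number, miR-182-5p ranked between 199 and 329 of 422 in B6 and between 152 and 236 in BTBR libraries.

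**Figure D1:**
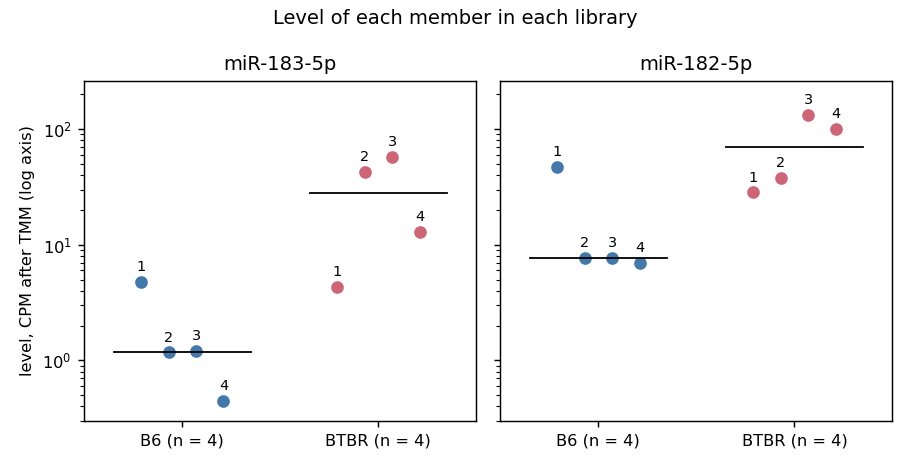
Level of miR-183-5p and miR-182-5p in each of the 8 libraries, in CPM after TMM on a log axis; points carry the replicate number and black lines are strain medians. B6 replicate 1, at 4.80 and 47.2 CPM, is the highest B6 library for both miRNAs and overlaps the BTBR range, which begins at 4.32 and 28.4 CPM.

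miR-182-5p averaged 17.4 ± 19.9 CPM in B6 mice (SD, n = 4) against 74.9 ± 50.2 CPM in BTBR mice (SD, n = 4), and the medians were 7.68 and 69.3 CPM. The log2 fold change of miR-182-5p was 2.11 (standard error 0.70), a fold of 4.31 with a 95% interval of 1.49 to 12.4. The adjusted p over all 422 miRNAs was 0.254 in edgeR's quasi-likelihood test, so that miR-182-5p did not pass the cutoff (unadjusted p = 0.0111). The exact permutation test on log2(CPM + 0.5), two-sided, gave p = 0.0857. This call turned on B6 replicate 1: leaving it out gave a log2 fold change of 3.28 and an adjusted p of 0.00929 in the same edgeR test, and miR-182-5p passed. It also passed with edgeR's exact test and with the DESeq2 Wald test, at adjusted p of 0.0801 and 0.0262.

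After TMM normalization, for neither member did all BTBR libraries lie above all B6 libraries. On that scale such a separation was seen in 3.32% of the 422 miRNAs, or in 6.64% when either direction is counted. Of the 16 pairs of 1 BTBR and 1 B6 library, the BTBR library was higher in 15 pairs for miR-183-5p and in 14 pairs for miR-182-5p. Before TMM normalization the remaining pair of miR-183-5p turned, at 4.48 CPM in BTBR replicate 1 against 4.32 CPM in B6 replicate 1. Its strains were then fully separated, and the share of all miRNAs so separated on that scale was not computed. Among all 422 miRNAs the median log2 fold change was 0.02. The members therefore stood at the upper edge of the distribution by size, with log2 fold changes ranking 1 and 6 from the top, while their standard errors were wide.

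**Figure D2:**
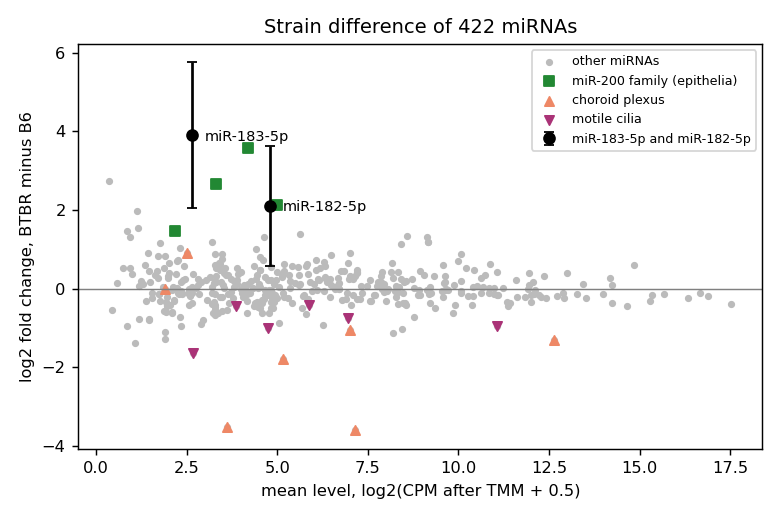
Log2 fold change between BTBR and B6 against mean level, log2(CPM after TMM + 0.5), for 422 miRNAs; black points with bars are miR-183-5p and miR-182-5p with their 95% intervals, and colours mark the miR-200 family, choroid plexus and motile cilia lists. The members lie at 3.90 and 2.11, near the miR-200 family.

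The highest library exceeded the lowest by 10.7 times in B6 and by 13.3 times in BTBR mice for miR-183-5p, and by 6.78 and 4.68 times for miR-182-5p. Among the other 3 B6 libraries, without replicate 1, these values were 2.69 for miR-183-5p and 1.10 for miR-182-5p. The within-strain SD of log2(CPM + 0.5) was 1.38 for miR-183-5p, the sixth largest of the 422 miRNAs, against a median of 0.44 over all miRNAs. For the 40 miRNAs closest to it in mean level the median was 0.66, and 1 of them had a larger SD. For miR-182-5p the within-strain SD was 1.19, ranking 16 of 422, against a median of 0.47 over its 40 closest neighbours in level, of which 1 was more variable. Without B6 replicate 1 the SD was 1.31 for miR-183-5p, ranking 11 of 422, and 0.83 for miR-182-5p, ranking 67, against a median of 0.46 over all miRNAs.

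The ratio of miR-182-5p to miR-183-5p reads in the same library needs no normalization and shows whether both members differed between the strains to the same extent. In B6 libraries the ratio was 9.84, 6.57, 6.33 and 15.5 in replicates 1 to 4, with Wilson 95% intervals that all overlapped. In BTBR libraries it was 6.57, 0.884, 2.31 and 7.83. miR-182-5p had more reads than miR-183-5p in 7 of the 8 libraries, and BTBR replicate 2 was the exception. BTBR replicates 1 and 4 lay within the range of the B6 ratios, and BTBR replicates 2 and 3 lay below it.

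Expressed as a share, miR-183-5p made up 53.1% of the reads of both members in BTBR replicate 2 (Wilson 95% interval 45.8% to 60.2%, of 179 reads), 30.2% in BTBR replicate 3 (27.0% to 33.5%, of 759 reads), 13.2% in BTBR replicate 1 (8.80% to 19.3%, of 159 reads) and 11.3% in BTBR replicate 4 (9.46% to 13.5%, of 945 reads). The intervals of replicates 2 and 3 overlapped neither each other nor those of replicates 1 and 4. In B6 mice the share lay between 6.06% and 13.6%, on 33 to 271 reads per library. These intervals cover counting error only, in reads without molecular identifiers.

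The geometric mean ratio was 8.93 in B6 and 3.20 in BTBR mice. On the log2 scale the mean was 3.16 ± 0.60 (SD, n = 4) in B6 and 1.68 ± 1.46 (SD, n = 4) in BTBR mice, a difference of -1.48 with a standard error of 0.79. This difference was within the spread between mice (two-sided exact permutation test over 70 assignments, p = 0.171), so that the larger fold change of miR-183-5p was not distinguished from that of miR-182-5p. Without BTBR replicate 2, the library with the lowest ratio, the difference was -0.86, and without B6 replicate 1 it was -1.43.

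**Figure D3:**
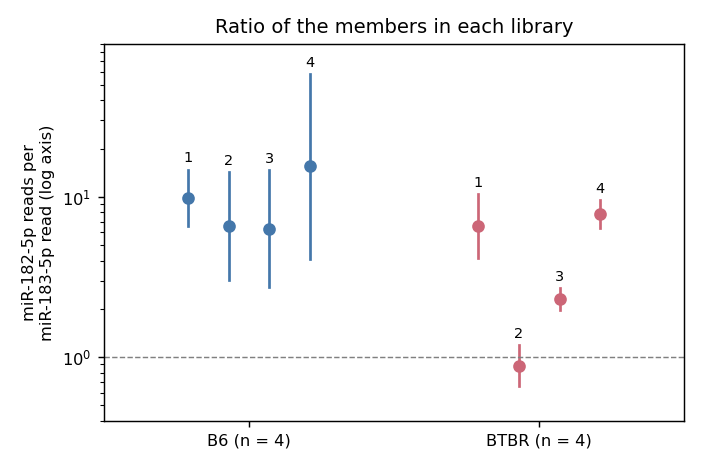
Number of miR-182-5p reads per miR-183-5p read in each library, on a log axis, with Wilson 95% intervals for counting error; points carry the replicate number and the dashed line marks equal numbers. The B6 ratios lie between 6.33 and 15.5, and the BTBR ratios spread from 0.884 to 7.83.

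To ask which miRNAs varied together with the members independently of strain, levels were expressed as log2 deviations from the mean of their strain, and Pearson's r was taken over the 8 libraries. For the members themselves r was 0.67 (p = 0.0868, exact test over all permutations of libraries within strains) and Spearman's rho was 0.74 (p = 0.0868 in the same permutation test). B6 replicate 1 and BTBR replicate 3 were above their strain means for both members, and BTBR replicate 1 was below for both. BTBR replicates 2 and 4 moved apart, with deviations of 1.11 and -0.58 for miR-183-5p and of -0.70 and 0.71 for miR-182-5p. Without BTBR replicate 1 and BTBR replicate 3, the libraries farthest from the median of miR-183-5p, r was 0.49, and without B6 replicate 1 and BTBR replicate 3, the farthest for miR-182-5p, it was 0.18. Without BTBR replicate 2 alone it was 0.87 (p = 0.0139 by the exact permutation test), and without B6 replicate 1 alone it was 0.52 (p = 0.347 by the same permutation test). The total reads of a library, centred the same way, had r of -0.45 with miR-183-5p and 0.28 with miR-182-5p (exact permutation p = 0.497 and 0.521; rho of -0.52 and 0.02, exact permutation p = 0.340 and 0.955). With the 2 farthest libraries left out these r were -0.46 and 0.67.

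Each member was compared in this way with the 411 other miRNAs that had a mean of at least 10 reads per library. miR-182-5p was number 19 in the order of r with miR-183-5p, and miR-183-5p number 15 in the order of r with miR-182-5p, so that neither was the other's closest relation. The lists of 20 miRNAs with the highest r shared 3 miRNAs, 15.0% of each. No r passed an adjusted p of 0.1 over the 411 comparisons of either member. The smallest adjusted p was 0.476 for miR-183-5p and 0.714 for miR-182-5p, by exact permutation within strains, and 15 and 13 miRNAs had an unadjusted p under 0.05. All these values share the same 8 libraries and normalization factors.

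The miRNA that followed miR-183-5p most closely was miR-574-5p (r = 0.93, rho = 0.90), with a mean of 25.7 CPM and a log2 fold change between strains of -0.04 (standard error 0.31). It was followed by miR-20b-5p (r = 0.88), a member of an X-linked relative of the miR-17/92 cluster, which had a mean of 2.60 CPM and 2 to 30 reads per library, and by miR-130a-3p (r = 0.87). miR-199a-3p and miR-199b-3p, which have the same counts in all libraries and are known from mesenchymal and vascular cells, came next (r = 0.87 for both). With the 2 libraries farthest from the median of miR-183-5p left out, r was 0.94 for miR-574-5p, 0.94 for miR-20b-5p, 0.80 for miR-130a-3p and 0.84 for miR-199a-3p. The lowest r belonged to let-7b-3p, the passenger strand of let-7b (r = -0.94, rho = -0.93), to miR-412-5p from the imprinted Dlk1-Dio3 locus (r = -0.88) and to miR-24-1-5p (r = -0.86). let-7b-3p varied little, with log2 deviations between -0.17 and 0.31, against -2.06 and 1.53 for miR-183-5p.

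With miR-182-5p, the highest r belonged to miR-101b-3p (r = 0.82, rho = 0.62) and to miR-143-3p (r = 0.81, rho = 0.62), a miRNA of smooth muscle and mural cells with a mean level of 6829 CPM. miR-199a-3p and miR-199b-3p (r = 0.78, rho = 0.83) were thus the ones named for both members. miR-1298-3p, encoded in an intron of Htr2c and abundant in choroid plexus, came next (r = 0.75). These values moved with few libraries: with the 2 libraries farthest from the median of miR-182-5p left out, r was 0.61 for miR-101b-3p, 0.31 for miR-143-3p, 0.55 for miR-199a-3p and 0.42 for miR-1298-3p. The lowest r belonged to miR-125b-5p (r = -0.87), miR-9-3p (r = -0.82) and miR-423-5p (r = -0.81). None of the miRNAs named here for their r, other than the members, passed the cutoff between strains, with adjusted p between 0.617 and 0.999 in edgeR's quasi-likelihood test.

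**Figure D4:**
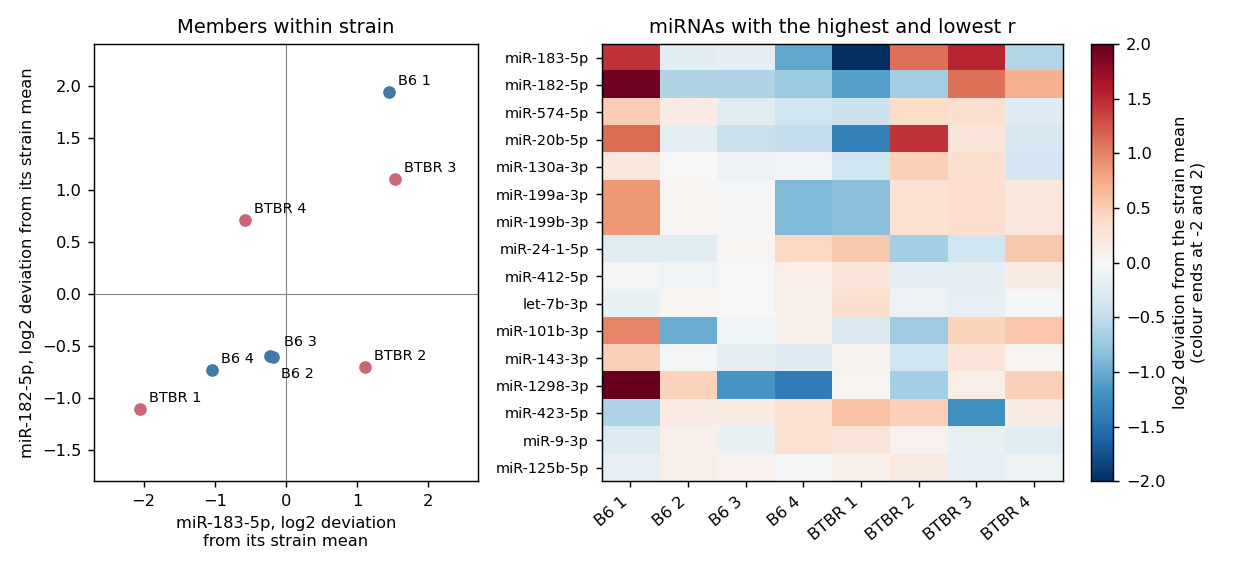
Left, deviation of miR-182-5p against that of miR-183-5p from their strain means, in log2(CPM after TMM + 0.5), for each library; right, the same deviations as colours for the members and the miRNAs with the highest and lowest r. B6 replicate 1 is high for both members, while BTBR replicate 2 is high for miR-183-5p (1.11) and low for miR-182-5p (-0.70).

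The members were then set beside other marker miRNAs, since the cluster is also found in epithelia and because the dissection could include other tissue. The miR-200 family, known as guardians of the epithelial state, had 4 of 5 listed members measured, all except miR-141-3p. Of these, 2 were called higher in BTBR mice and 0 lower, and the median log2 fold change was 2.39, against 0.02 over all 422 miRNAs. Without B6 replicate 1, 3 were called higher and the median was 2.89, in a fit that called 1.90% of all miRNAs, 1.42% as higher. Their summed level was 19.4 to 44.1 CPM in B6 and 117 to 192 CPM in BTBR mice, so that the strains did not overlap, in contrast to the summed level of the members (7.41 to 52.0 CPM in B6 and 32.7 to 190 CPM in BTBR mice). BTBR replicate 1, the lowest BTBR library for both members, had 192 CPM of the miR-200 family, the highest of all libraries. Within strains, the summed level of the family had r of 0.14 with miR-183-5p and 0.71 with miR-182-5p (exact permutation p = 0.766 and 0.115; rho of 0.10 and 0.38, exact permutation p = 0.847 and 0.403). Without the 2 libraries farthest from the median of the member, these r were 0.36 and 0.16, and without B6 replicate 1 they were -0.48 and 0.26. Over the 14 relations of 7 lists with the 2 members, no adjusted p of r was under 0.194 by exact permutation.

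The choroid plexus miRNAs, with miR-204-5p and the miR-448 and miR-1298 miRNAs of the Htr2c introns, were not called in either direction (0 of 7, all measured). Their median log2 fold change was -1.30, with 6 of 7 below 0, and without B6 replicate 1 it was -0.59, with 4 of 7 below 0 and 0 called. Their summed level in B6 replicate 1 was 30913 CPM, against 4282 to 13159 CPM in the other B6 libraries and 2893 to 7878 CPM in BTBR mice. The miRNAs of motile cilia, the miR-34b/c and miR-449 miRNAs, were likewise highest in B6 replicate 1, at a summed 9865 CPM against 1006 to 3535 CPM in the other B6 libraries and 1837 to 2568 CPM in BTBR mice. Of the 7 listed, 6 were measured and 0 were called, with a median log2 fold change of -0.85 and all 6 below 0. Without B6 replicate 1 the median was -0.11, with 4 of 6 below 0 and 0 called. B6 replicate 1, the B6 library highest in both members, was also the one with the most choroid plexus and cilia miRNAs, and BTBR replicate 1, the BTBR library lowest in both members, had the lowest choroid plexus sum, at 2893 CPM, but the highest cilia sum among BTBR mice, at 2568 CPM. Within strains, the summed choroid plexus level had r of 0.73 with miR-183-5p and 0.65 with miR-182-5p (exact permutation p = 0.0139 and 0.0885, adjusted over the 14 relations 0.194 and 0.423; rho of 0.64 and 0.60, exact permutation p = 0.0799 and 0.151). Without the 2 libraries farthest from the median of the member these r were 0.86 and 0.23, and without B6 replicate 1 they were 0.62 and 0.15. Most of the choroid plexus sum was miR-204-5p, at 26966 of the 30913 CPM in B6 replicate 1, with r of 0.74 and 0.64. For miR-204-3p r was 0.71 and 0.72, and for miR-211-5p 0.45 and 0.36. The miR-448 and miR-1298 miRNAs had r between 0.21 and 0.37 with miR-183-5p. With miR-182-5p, miR-448-5p had r of 0.22, and miR-448-3p, miR-1298-5p and miR-1298-3p had 0.70, 0.68 and 0.75. The summed cilia level had r of 0.42 and 0.63 (exact permutation p = 0.207 and 0.151; rho of 0.24 and 0.50, exact permutation p = 0.573 and 0.257), of 0.76 and 0.01 without the 2 farthest libraries, and of 0.00 and -0.06 without B6 replicate 1. No relation of a member to these lists passed the correction. The r of miR-182-5p with both lists, and that of miR-183-5p with the cilia list, rested on B6 replicate 1. The part of these miRNAs in the levels of miR-183-5p and miR-182-5p was not tested.

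Red blood cell miRNAs had 6 of 6 listed members measured, of which 1, miR-451a, was called higher and 0 lower, and their median log2 fold change was 1.19. The counts of miR-486b-5p equal those of miR-486a-5p in all libraries, so that these are 5 separate measurements, and 1.19 is the value of that pair. With the pair counted once, the summed level was 307 to 855 CPM in B6 and 541 to 1376 CPM in BTBR mice. Without B6 replicate 1 the median over all 6 listed miRNAs, with the pair not merged, was 1.12, with 1 called higher. As for miR-183-5p, BTBR replicate 1 was the lowest BTBR library, but among B6 mice replicate 2 and not replicate 1 was the highest. Within strains, the summed level, with the pair counted once, had r of 0.60 with miR-183-5p and 0.26 with miR-182-5p (exact permutation p = 0.139 and 0.582; rho of 0.48 and 0.43, exact permutation p = 0.302 and 0.344), of 0.25 and 0.29 without the 2 farthest libraries, and of 0.70 and 0.43 without B6 replicate 1. Most of the red blood cell sum was miR-486a-5p, which averaged 952 CPM over the BTBR libraries, and the next highest, miR-451a, averaged 80.9 CPM. The single miRNAs differed in sign. With miR-183-5p and miR-182-5p, r was 0.62 and 0.28 for miR-486a-5p, 0.64 and 0.27 for miR-144-5p, and 0.37 and 0.59 for miR-144-3p. For miR-451a r was -0.41 and -0.52, and for miR-486a-3p -0.44 and -0.52. The part of blood in the levels of the members was not tested. The 7 brain miRNAs had a median log2 fold change of 0.06, or -0.10 without B6 replicate 1, with 0 called in either fit.

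**Figure D5:**
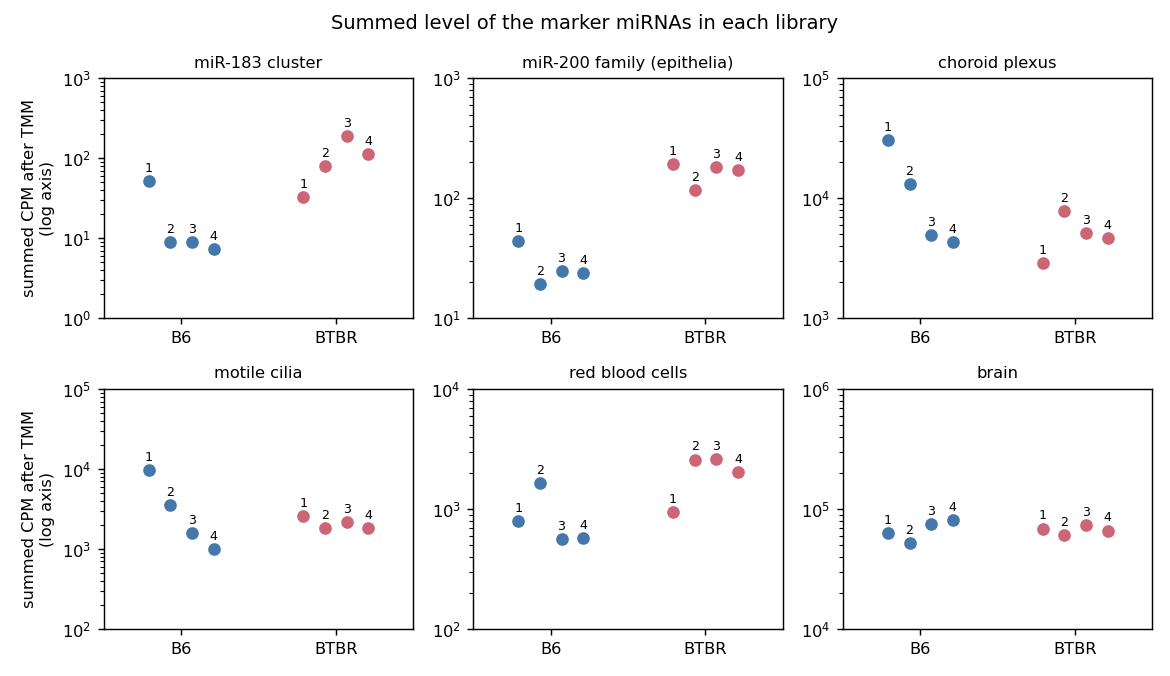
Summed level, in CPM after TMM on a log axis, of 6 lists of marker miRNAs in each library; points carry the replicate number, and the red blood cell sum adds miR-486a-5p and miR-486b-5p, which have identical counts. The miR-200 family separates the strains (19.4 to 44.1 against 117 to 192 CPM), the 2 measured members of the miR-183 cluster overlap, and B6 replicate 1 is the highest library for choroid plexus and motile cilia.

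Because the study paired both members with predicted target transcripts, seed matches were located in the 3′UTRs of 3 of those transcripts on GRCm38, 1 for miR-183-5p and 2 for miR-182-5p. They were chosen for the roles of the genes. Zeb2 encodes a transcription factor, and Ppp3ca and Ppp3r1 the catalytic and regulatory subunits of the phosphatase calcineurin. The paper goes beyond prediction for Zeb2, which it describes as an experimentally established target of miR-183-5p. By RT-qPCR on RNA of the same mice it also reported higher miR-183-5p and lower Zeb2 mRNA in BTBR hippocampus. The letters searched, on the transcript strand only, were GTGCCAT and TGCCATA for miR-183-5p and TTGCCAA and TGCCAAA for miR-182-5p, and a position matching both counted as 1 site. Each site is printed 5′ to 3′ with the match in capitals.
Zeb2 for miR-183-5p: gtctctgcaaGTGCCATccttgtacag
Ppp3ca for miR-182-5p: tttgttaaaaTGCCAAAaaataaaaaa
Ppp3r1 for miR-182-5p: ttcagtgctgTTGCCAAgagtgggttc
Ppp3r1 for miR-182-5p, second site: aaagatgatgTTGCCAAActttggaaat
The matches lie at chr2:44987840-44987846 on the minus strand for Zeb2, chr3:136935874-136935880 on the plus strand for Ppp3ca, and chr11:17199007-17199013 and chr11:17199922-17199929 on the plus strand for Ppp3r1. All fall in the last, untranslated part of the transcript, at base 727 after the stop codon in Zeb2, 649 in Ppp3ca, and 701 and 1616 in Ppp3r1. Only the second site of Ppp3r1 matched 8 bases.

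Matches of this kind are common in sequence of this length. The 3′UTR of Zeb2 has 4941 bases, and 45.0% of the 822 genes with a 3′UTR at least as long held a miR-183-5p match in the same number of bases after the stop codon. For miR-182-5p the share was 31.3% of 3898 genes at the 2502 bases of Ppp3ca and 27.5% of 5140 genes at the 2069 bases of Ppp3r1. These shares count genes with any match, and the share with 2 sites or an 8-base match, as in Ppp3r1, was not computed. The sequences are those of the B6 reference genome, and the BTBR sequence at these sites and levels of the transcripts were not analysed here.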

How the data were processed

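Small RNA libraries of the hippocampus of 4 BTBR and 4 B6 mice were assigned to their strain and replicate number from the labels. The authors removed adapters, checked quality with FastQC 0.11.2, mapped reads to GRCm38 with sRNAbench (Bowtie), assigned reads lying inside miRBase v21 annotations and deposited read counts for 422 miRNAs without normalization. Fractional counts of reads shared between miRNAs were rounded in that table, no molecular identifiers are described, and the labels name no batches.

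Counts were normalized by TMM and strains compared with the quasi-likelihood test of edgeR 4.0.16 in R 4.3.3, without covariates or filter, following the study's use of edgeR, TMM and an FDR cutoff of 0.1. Standard errors are the size of the log2 fold change divided by the square root of F. Permutation tests were exact and two-sided, with 0.5 CPM added before taking logs. limma 3.58.1 and DESeq2 1.42.0 served as alternatives, and scipy 1.17.1 and matplotlib 3.10.9 for intervals and plots. The fits were tested beforehand on simulated data with less spread between libraries than these data have. That test therefore cannot vouch for calls on miRNAs as variable as the members. The named miRNAs are the members, for each the 5 with the highest and 3 with the lowest within-strain r among miRNAs with a mean of at least 10 reads, and those on the marker lists. Members, lists and tests were chosen with earlier results of these data known. Sequences come from RefSeq (GRCm38.p6) and GENCODE M21. One predicted target site is not reported here.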

Additional observations from a re-analysis of the deposited data

Results flagged for a closer look

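The level of miR-182-5p in B6 replicate 1, 47.2 CPM, lay far from the other B6 libraries, which were between 6.97 and 7.70 CPM. The gap to the nearest of these was 0.982 of the range of the group, above the critical value of Dixon's test for 4 samples. For miR-183-5p the gap of the same library, at 4.80 CPM, was 0.825 of the range and stayed just under the critical value. Of 6 sets of 4 values examined, 1 was marked, where chance marks about 5%. B6 replicate 1 was also the highest B6 library in choroid plexus and motile cilia miRNAs, and their part in this value was not tested.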

How the results depend on the processing

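Both members kept their direction under all 19 alternatives tried for each, and the ratio and the within-strain correlation kept theirs under 11 and 13. miR-183-5p passed the cutoff of 0.1 in 11 of 18 other fits. It did not pass with limma-voom (log2 fold change 3.52), robust dispersions (3.90) or a replicate block (3.92, adjusted p = 0.277), nor at a cutoff of 0.05 (3.90), and ranged from 3.32 to 4.82 when each mouse was left out. miR-182-5p passed with edgeR's exact test (2.11), the DESeq2 Wald test (2.12) and without B6 replicate 1, and ranged from 1.68 to 3.28 when each mouse was left out. Over these fits the adjusted p lay between 1.33e-05 and 0.277 for miR-183-5p and between 0.00929 and 0.517 for miR-182-5p. The number of miRNAs past the cutoff, 7, became 16 with edgeR's exact test, 21 with DESeq2, 4 with library sizes only, 3 with the replicate block, 4 at a cutoff of 0.05, and 3 to 13 with 1 mouse left out (13 without B6 replicate 2, 4 without BTBR replicate 1, 3 without BTBR replicate 3 or 4). Library sizes only moved the median log2 fold change of all miRNAs by 0.13. The difference in log2 ratio ranged from -1.91 to -0.86 and the within-strain r from 0.52 to 0.87 when each mouse was left out. miR-375-3p turned from -0.01 to 0.78 without B6 replicate 1, an alternative chosen after seeing the data, as were the marker lists and the spread without that library and the correlations with the summed lists. The cause of these changes was not tested.

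The labels do not say whether same-numbered mice of the 2 strains were paired. Over 412 miRNAs, deviations of same-numbered libraries correlated at 0.06, -0.07, -0.15 and -0.15 for numbers 1 to 4. Only number 1 correlated best with its own number. With 4 libraries per strain these values cannot show whether there was a pairing. With same-numbered libraries as pairs, sign flips of the difference in log2 ratio gave p = 0.125, the smallest that 4 pairs allow by exact permutation, and miR-182-5p had a log2 fold change of 2.51 (adjusted p = 0.415) under the block in edgeR. miR-183-5p had 2 to 25 reads in the B6 libraries, which widens the counting intervals of its level and ratio there.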

Other observations

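The neuroendocrine miRNAs, listed because the cluster is also expressed in the pineal gland, were all 3 measured and 0 were called between strains, with a median log2 fold change of -0.13, or -0.16 without B6 replicate 1. miR-375-3p, a miRNA of endocrine cells, had 656, 258, 131 and 76.8 CPM in B6 replicates 1 to 4 and between 226 and 323 CPM in BTBR mice, and B6 replicate 1 was again the highest library. Between strains miR-375-3p did not pass the cutoff, at a log2 fold change of -0.01 ± 0.52 (standard error), with edgeR's quasi-likelihood test giving an adjusted p of 0.996. Without B6 replicate 1 that value was 0.78 ± 0.35 (standard error), with an adjusted p of 0.676 in the same edgeR test. Of 5 other epithelial miRNAs, 4 were measured and 0 were called, with a median log2 fold change of 0.04, or -0.12 without B6 replicate 1. miR-203-3p, typical of stratified epithelium, averaged 26.5 ± 5.58 CPM in B6 mice (SD, n = 4) against 30.9 ± 8.15 CPM in BTBR mice (SD, n = 4), and miR-205-5p has no row in the table.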
